A study of Mus musculus with 6 samples.

Results

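The genes described here are 10 genes of the integrated stress response and the unfolded protein response, Atf4, Atf3, Ddit3, Asns, Trib3, Chac1, Sesn2, Xbp1, Hspa5 and Hsp90b1. They were chosen by gene symbol from the deposited count table, which lists 24054 genes, and all 10 were among the 12660 genes with enough counts to be tested. The data are RNA-seq libraries from the gastrocnemius, a calf muscle, of male C57BL/6 mice, 3 from MI4KO and 3 from MI4OE mice. IRF4 is a transcription factor of the interferon regulatory factor family, and the comparison asks which muscle transcripts differ when it is overexpressed rather than deleted. MI4KO mice are Irf4 flox/flox animals carrying Myl1-cre, and MI4OE mice carry the same Myl1-cre with a Rosa26-LSL-IRF4 allele, so both groups express Cre from the Myl1 locus of skeletal muscle. No wild-type, flox or Cre-only gastrocnemius was analysed here, and each difference is therefore between a knockout and an overexpressor. The labels give a high fat diet for all 6 libraries while the study describes chow-fed mice, so the diet is uncertain, and no age was found for these libraries. The muscle was taken whole. In such a bulk sample, fewer cells of a type and less RNA per cell cannot be told apart.

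In the integrated stress response, several kinases phosphorylate the initiation factor eIF2, general translation slows, and the mRNA of the transcription factor ATF4 is translated more. ATF4 then activates genes for amino acid supply, redox balance and, through ATF3 and CHOP (the product of Ddit3), cell fate. The unfolded protein response is set off by misfolded protein in the endoplasmic reticulum (ER) through PERK, which is one of the eIF2 kinases, through IRE1, which splices Xbp1 mRNA, and through ATF6, and it raises ER chaperones such as BiP (Hspa5) and GRP94 (Hsp90b1). Muscle uses both during fasting, disuse and mitochondrial stress. ATF4 activity is set largely by translation, and XBP1 activity by splicing, neither of which a gene-level mRNA count measures.

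None of the 10 genes differed between MI4OE and MI4KO at an adjusted p of 0.05 (edgeR's quasi-likelihood test with Benjamini-Hochberg adjustment), and 0 of them had an unadjusted p under 0.05. Over all genes tested, 3 passed the adjusted threshold (0.0237%) and 7.58% had an unadjusted p under 0.05. The criterion of the study, a 1.5-fold difference with an unadjusted p under 0.05, was met by 0 of the 10 genes and by 6.64% of all genes tested, 4.36% higher and 2.28% lower in MI4OE. With DESeq2, the edgeR exact test and limma on log2(TPM + 1), 0 of the 10 genes again passed an adjusted p of 0.05. DESeq2 placed 1 of them, Ddit3, at 1.5-fold with an unadjusted p under 0.05, and the exact test and limma placed 0. In simulated libraries with the depths and spread of these 6, edgeR's quasi-likelihood test recovered 10 of 90 genes altered 2-fold and 89 of 107 altered 4-fold at an adjusted p of 0.05, so most 2-fold differences would not pass that threshold.

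The libraries held 18828605 to 29239585 expected counts. Replicate numbers follow accession order, so equal numbers do not link libraries across the groups. The genotype was checked on Irf4, which had 0 to 6 counts in MI4KO and 2864 to 10557 in MI4OE, and on Gt(ROSA)26Sor, the transcript of the locus holding the transgene, which had 15 to 19 and 1420 to 2002. Gastrocnemius is mostly a fast muscle, and the fast-fibre markers summed to 158100 to 235900 TPM (a per-length abundance, scaled to one total) in every library. MI4OE replicate 1 stood apart. Its 8 slow-fibre markers summed to 9699 TPM against 9.26 to 882 TPM in the other 5 libraries, its erythrocyte markers to 1521 TPM against 455 to 750 TPM, and 31.5% of all genes tested were at their highest there. MI4KO replicate 1 had the highest summed level of 10 fasting and glucocorticoid response genes, 1266 TPM against 497 to 835 TPM. MI4KO replicate 2 and MI4OE replicate 2 shared a shift towards long transcripts. With the genes tested split into 3 equal classes by transcript length, the median deviation of the longest class minus that of the shortest was 0.39 and 0.27 on the log2 scale in these libraries, against -0.38 to 0.08 in the other 4. Values below are CPM, counts scaled to one TMM-adjusted library size, unless TPM is named, and the log2 fold change is MI4OE over MI4KO, given with its standard error (SE).

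The promoters of the 10 genes were compared first, as a description of sequence. The genes were chosen as known genes of the ATF4 pathway and the unfolded protein response. Matches to the elements of these pathways are therefore no independent support. Promoters of 300 bases, from 250 before to 50 after the start of the gene, were read from RefSeq on GRCm38.p6 and were found for all 10 genes. The C/EBP-ATF response element bound by ATF4 was searched on both strands as TGATGNAA. It was present in Atf3, Chac1, Trib3 and Asns, 4 of the 10 genes, and in 4.51% of the 27025 genes with a promoter in the table. The ER stress response element, CCAAT followed after any 9 bases by CCACG, was present in Hspa5 and, at 2 places, in Hsp90b1, and in 0.137% of all genes. An interferon-stimulated response element, searched as GAAA, any 2 bases and GAAA, is the kind of element that IRF proteins bind. It was found in 0 of the 10 windows and in 3.99% of all genes. The stretches below are shown to place each match, printed on the strand of the gene with the match in capitals; TTGCATCA and TTACATCA are matches read on the opposite strand. In Trib3 the match lies downstream of the annotated start, and in the other genes upstream of it.
Atf3, chr1:191183410-191183469, minus strand: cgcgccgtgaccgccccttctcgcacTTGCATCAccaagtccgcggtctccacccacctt
Chac1, chr2:119351023-119351082, plus strand: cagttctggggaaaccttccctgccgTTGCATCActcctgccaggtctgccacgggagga
Trib3, chr2:152344039-152344072, minus strand: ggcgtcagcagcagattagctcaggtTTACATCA
Asns, chr6:7693210-7693258, minus strand: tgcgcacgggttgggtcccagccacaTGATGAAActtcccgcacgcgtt
Hspa5, chr2:34772004-34772063, plus strand: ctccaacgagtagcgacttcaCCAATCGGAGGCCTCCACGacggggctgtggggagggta
Hsp90b1, match farther from the start, chr10:86705618-86705677, minus strand: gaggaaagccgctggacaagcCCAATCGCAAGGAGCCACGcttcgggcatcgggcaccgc
A match of letters does not show that a factor was bound in these muscles, and a window without a match says only that these letters are not in it.

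On the TPM scale, which is per length, the 10 genes covered a wide range of levels. Atf4 was highest at 201.9 ± 12.3 TPM (mean ± SD over the 6 libraries), rank 497 among the genes tested, and did not overlap with any other of the 10. Hspa5 followed at 92.1 ± 8.98 TPM. Chac1 at 56.4 ± 37.3 TPM, Hsp90b1 at 55.1 ± 4.08 TPM and Xbp1 at 36.7 ± 2.81 TPM came next, and Chac1 overlapped with both of its neighbours while Hsp90b1 lay above Xbp1 in every library. Ddit3 at 23.5 ± 22.2 TPM reached from the level of Atf3 to above that of Hsp90b1. Atf3 stood at 5.13 ± 4 TPM, and its 3 low libraries, at 1.39 to 2.14 TPM, reached into the range of Sesn2, 0.57 to 2.12 TPM. Sesn2 at 1.42 ± 0.593 TPM, Asns at 1.01 ± 0.317 TPM and Trib3 at 0.817 ± 0.468 TPM were the lowest and overlapped with one another.

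**Figure D1:**
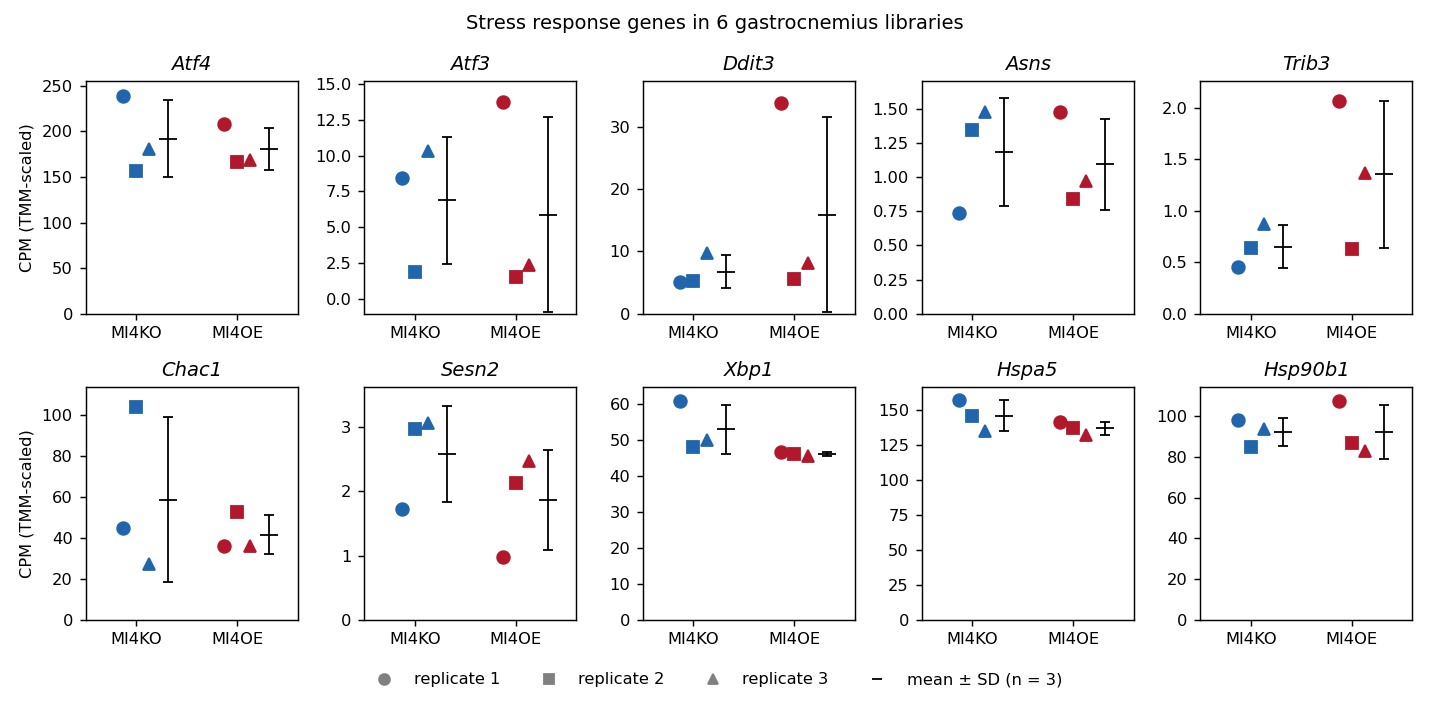
CPM with TMM-scaled library sizes of the 10 genes in each library, 1 panel per gene with its own linear axis; circles, squares and triangles are replicates 1, 2 and 3, blue for MI4KO and red for MI4OE, and the bars show the mean ± SD of 3 libraries. In Ddit3 the circle of MI4OE replicate 1 at 33.95 CPM lies far above the other 5 libraries, whereas the Hspa5 points all lie between 132.1 and 156.9 CPM.

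Among the transcription factors, Atf4, the central activator of the integrated stress response, was at 238.7, 157.1 and 180.9 CPM in MI4KO replicates 1 to 3, compared with 207.8, 166.7 and 168.1 CPM in MI4OE. The groups overlapped, and replicate 1 was the highest library of each group. Atf4 had a log2 fold change of -0.09 (SE 0.21, 95% interval -0.58 to 0.41, adjusted p = 0.948, edgeR quasi-likelihood test, n = 3 per group), and its sign turned without MI4KO replicate 1. Total-count scaling gave 0.027, below the median of all genes, which this scaling moved to 0.09. The 2 libraries with the shift towards long transcripts, MI4KO replicate 2 and MI4OE replicate 2, were the 2 lowest for Atf4, which has transcripts of 1446 and 1729 bases and belongs to the shortest class. The part of that shift in the Atf4 values was not tested.

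Atf3, an ATF4 target that is also an immediate early gene, varied most of the 10 genes. It was at 8.43, 1.86 and 10.34 CPM in MI4KO, compared with 13.77, 1.503 and 2.385 CPM in MI4OE. The libraries fell into 3 high ones, MI4KO replicates 1 and 3 and MI4OE replicate 1, and 3 low ones, and both groups held libraries of either kind. The highest library exceeded the lowest 9.16-fold, a larger ratio than in 96.3% of all genes tested, and the biological coefficient of variation (BCV) was 0.723 against 0.264 for genes of its level. Atf3 had a log2 fold change of -0.24 (SE 0.88, 95% interval -2.29 to 1.81, adjusted p = 0.97 by edgeR). It became -1.83 without MI4OE replicate 1, with an unadjusted edgeR p of 0.0312 while its adjusted p was 0.886 or more under every alternative. It became positive when MI4KO replicate 3, MI4OE replicate 2 or MI4OE replicate 3 was left out.

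Ddit3 encodes CHOP, a transcription factor of prolonged ER stress. It was at 5.12, 5.27 and 9.77 CPM in MI4KO, compared with 33.95, 5.59 and 8.13 CPM in MI4OE. A single library, MI4OE replicate 1, lay above the other 5, which overlapped between the groups. The Ddit3 log2 fold change of 1.23 (SE 0.66, 95% interval -0.31 to 2.77, adjusted p = 0.73 by edgeR) became 0.02 without that library and 1.64 without MI4OE replicate 2. MI4OE replicate 1 is the library with the high slow-fibre and erythrocyte markers. Between the groups, 6 of 7 tested slow-fibre markers met the 1.5-fold criterion, beside 6.64% of all genes tested. The part of the slow-fibre and erythrocyte markers in the Ddit3 value was not tested. Ddit3 overlaps Mbd6 and Mars in the RefSeq annotation, its gene total was the only one among the 10 genes that was not a whole number in every library (tolerance 0.005), and its count is uncertain to that extent.

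Asns, Trib3, Chac1 and Sesn2 are ATF4 targets that act as enzymes and signalling regulators. Asns, asparagine synthetase, was at 0.737, 1.35 and 1.48 CPM in MI4KO, compared with 1.48, 0.839 and 0.972 CPM in MI4OE, from 18 to 44 counts per library. The groups overlapped, and the log2 fold change was -0.13 (SE 0.40, adjusted p = 0.965 by edgeR). Leaving out MI4KO replicate 3 or MI4OE replicate 2 gave 0.047 or 0.034, and leaving out MI4OE replicate 1 gave -0.40. Trib3, a pseudokinase that dampens ATF4 and insulin signalling, was at 0.450, 0.634 and 0.873 CPM in MI4KO, compared with 2.07, 0.629 and 1.37 CPM in MI4OE. MI4OE replicates 1 and 3 were above every MI4KO library, and MI4OE replicate 2 was among them. Trib3 had a log2 fold change of 1.03 (SE 0.51, 95% interval -0.16 to 2.21, unadjusted p = 0.0798, adjusted p = 0.71 by edgeR). It stayed positive under all 13 alternatives, from 0.44 with limma to 1.38 without MI4OE replicate 2, and was 0.59 without MI4OE replicate 1. Trib3 had only 11 to 42 counts per library.

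Chac1, an enzyme that degrades glutathione, was at 44.95, 103.7 and 27.07 CPM in MI4KO, compared with 36.21, 52.54 and 35.73 CPM in MI4OE. MI4KO replicate 2 was the highest library and MI4OE replicate 2 the next, which are again the libraries shifted towards long transcripts, here at the upper end although Chac1 also belongs to the shortest class, and the part of that shift was not tested. Chac1 had a log2 fold change of -0.50 (SE 0.45, adjusted p = 0.853 by edgeR), and without MI4KO replicate 2 it was 0.19. Sesn2, a leucine-binding inhibitor of mTORC1, was at 1.72, 2.97 and 3.06 CPM in MI4KO, compared with 0.984, 2.13 and 2.47 CPM in MI4OE, from 20 to 91 counts. Its groups overlapped, its lowest library was MI4OE replicate 1, and its log2 fold change was -0.47 (SE 0.40, adjusted p = 0.848 by edgeR), -0.17 without MI4OE replicate 1 and -0.72 without MI4OE replicate 3. In MI4OE replicate 1, Ddit3, Trib3, Atf3 and Hsp90b1 were thus at their highest and Sesn2 at its lowest. Of the 10 genes, 4 were highest in that library, against 31.5% of all genes tested.

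The ER branch varied least. Xbp1, the transcription factor activated by IRE1, was at 60.96, 48.10 and 50.08 CPM in MI4KO, compared with 46.83, 46.32 and 45.53 CPM in MI4OE. It was the only one of the 10 genes whose groups did not overlap, compared with 12.9% of all genes tested, and on the TPM scale its groups did overlap (36.72 to 40.89 TPM in MI4KO, 32.24 to 37.42 TPM in MI4OE). Xbp1 had a log2 fold change of -0.20 (SE 0.15, 95% interval -0.55 to 0.16, adjusted p = 0.839 by edgeR). The sign was the same under all 13 alternatives, from -0.28 to -0.09, and the value nearest 0 was obtained without MI4KO replicate 1.

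Hspa5, which encodes the ER chaperone BiP, was at 156.9, 145.4 and 134.9 CPM in MI4KO, compared with 141.4, 136.9 and 132.1 CPM in MI4OE. The highest library was 1.19-fold above the lowest, and only 3.26% of all genes tested had a smaller ratio. Hspa5 had a log2 fold change of -0.09 (SE 0.15, 95% interval -0.45 to 0.27, adjusted p = 0.92 by edgeR), and with total-count scaling 0.0054, again below the median of all genes under that scaling. Hspa5 overlaps Rabepk in the RefSeq annotation. Hsp90b1, the ER paralogue of HSP90, was at 98.17, 85.10 and 93.71 CPM in MI4KO, compared with 107.5, 86.73 and 83.03 CPM in MI4OE. Its log2 fold change was 0.00 (SE 0.17, 95% interval -0.39 to 0.39, adjusted p = 1 by edgeR). For these ER genes the intervals of the main fit bound the difference to less than 1.5-fold either way. The Atf4 interval ends practically at 1.5-fold, at -0.58, and its estimate was -0.23 without MI4KO replicate 2. The intervals of Atf3, Ddit3, Trib3, Chac1, Sesn2 and Asns reach beyond 1.5-fold.

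**Figure D2:**
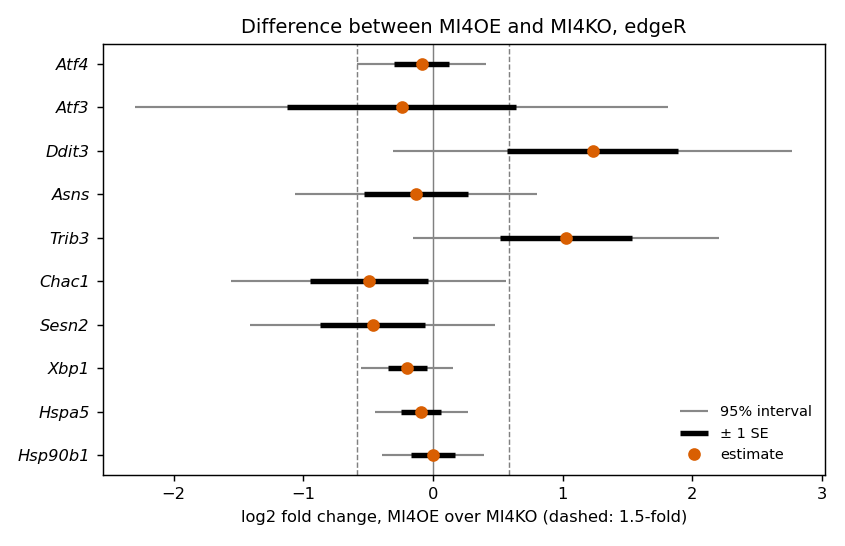
The log2 fold change of each of the 10 genes, MI4OE over MI4KO, on the horizontal axis, with ± 1 SE (thick bars) and the 95% interval (thin bars) from edgeR; dashed lines mark 1.5-fold. Every 95% interval includes 0, and the intervals of Xbp1, Hspa5 and Hsp90b1 are far narrower than that of Atf3, -2.29 to 1.81.

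Over the 10 genes the log2 fold change was positive for 3 and negative for 7, with a median of -0.11, against a median of 0 over all genes tested and a median size of 0.20. Hsp90b1, at 0.00, took either sign among the alternatives. The spread between libraries of a group was over the trend for genes of like level in 5 of the 10, Atf3, Ddit3, Trib3, Chac1 and Sesn2, compared with 28.9% of all genes tested. Among the 45 pairs of the 10 genes, log2 CPM was most alike over the 6 libraries in Atf3 and Hsp90b1 (Pearson's r = 0.89) and in Ddit3 and Trib3 (r = 0.89) and most opposed in Sesn2 and Hsp90b1 (r = -0.80). The depth and composition of a library are common to all of its genes, and MI4OE replicate 1 is at an extreme in all 3 pairs.

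The transcript estimates were examined for Xbp1, since IRE1 removes a short intron from its mRNA in the cytosol. One placement of the intron is shown in capitals below, from the GENCODE transcript of Xbp1 on GRCm38. The intron lies in coding exon 4 and has 26 bases, and its removal lengthens the open reading frame from 267 to 371 codons. The stretch in capitals covers positions 818 to 843 of the transcript (chr11:5524282-5524307, plus strand). The bases CAG stand before it and also end it, so a stretch that starts a few bases earlier gives the same product. The letters alone therefore do not place the exact ends.
Xbp1, chr11:5524262-5524327, plus strand: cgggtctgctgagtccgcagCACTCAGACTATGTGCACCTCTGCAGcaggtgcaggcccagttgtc
The deposited transcript estimates give a spliced form of 2221 bases and an unspliced form of 2247 bases. The spliced form made up 12.4%, 12.4% and 7.20% of the expected counts of Xbp1 in MI4KO and 8.70%, 6.03% and 22.9% in MI4OE. The means were 10.6% ± 2.98 (SD, n = 3) in MI4KO and 12.6% ± 9.09 in MI4OE, the groups overlapped, and an exact two-sided permutation test gave p = 0.9, where 0.1 is the smallest this design allows. The highest share, in MI4OE replicate 3, decided the sign. Without it the difference of 1.92 percentage points became -3.27. Reads of 50 bases would cover the junction only about 32 to 50 times in a library if they fell evenly along the mRNA, so these shares rest on few reads.

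Atf4, Hspa5 and Ddit3 were also estimated as 2 transcripts each. The longer Atf4 transcript held 39.9%, 60.8% and 40.4% of the counts in MI4KO and 30.4%, 58.1% and 46.3% in MI4OE. The longer Hspa5 transcript held 5.78%, 21.5% and 10.5% in MI4KO and 3.67%, 19.4% and 4.59% in MI4OE. In both genes MI4KO replicate 2 and MI4OE replicate 2 had the highest shares, the libraries shifted towards long transcripts over all genes, and the groups overlapped. The shorter Ddit3 transcript had 41.8% and 44.2% of the Ddit3 counts in MI4KO replicate 1 and MI4OE replicate 1 and 0 to 7.45% in the other 4 libraries.

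**Figure D3:**
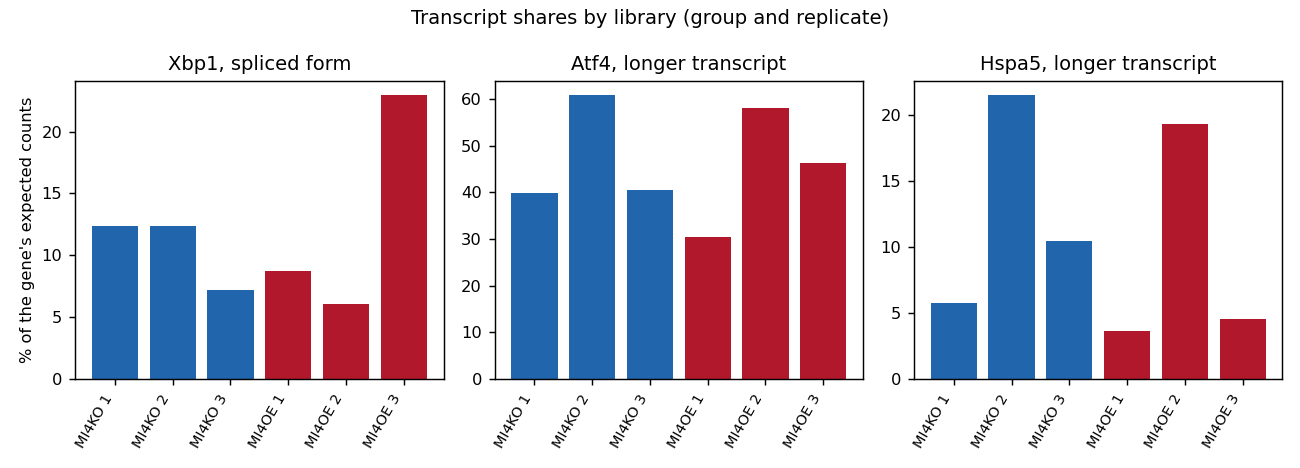
Share of a gene's expected counts (vertical axis, in %, from 0) given to the spliced form of Xbp1, the longer transcript of Atf4 and the longer transcript of Hspa5 in each library, blue for MI4KO and red for MI4OE. MI4OE replicate 3 has the highest Xbp1 share at 22.9%, and replicate 2 of both groups has the highest shares in the other panels.

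The wider pathways were read from gene lists. Of 12 genes for the eIF2 kinases, the eIF2 phosphatases and the exchange factor eIF2B, 0 met the 1.5-fold criterion, 5 had a positive and 7 a negative log2 fold change, and the median was -0.06 (0.033 with total-count scaling, against 0.09 over all genes). The sign also turned without MI4KO replicate 1 (0.02) and without MI4OE replicate 2 (0.03). Eif2b4 and Eif2b5, subunits of eIF2B and the 2 with the highest TPM, had log2 fold changes of -0.04 (SE 0.18) and -0.16 (SE 0.15). The PERK gene Eif2ak3, named here after its values were seen, was at 1.19 to 2.59 CPM in MI4KO and 2.26 to 3.80 CPM in MI4OE. Its groups overlapped, and its log2 fold change was 0.50 (SE 0.37, adjusted p = 0.819 by edgeR). Of 8 genes for ER stress sensors and their activation, 0 met the criterion and the median was -0.08. Leaving out MI4KO replicate 1 moved this median to -0.28, and leaving out MI4OE replicate 1 moved it to 0.06. The 2 with the highest TPM were Mbtps1, the site-1 protease that cleaves ATF6, at a log2 fold change of -0.03 (SE 0.15), and Traf2, an adaptor of IRE1, at -0.07 (SE 0.23). Beside 6.64% of all genes tested, a count of 0 in lists of this size is near the background.

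Of 32 genes for ER chaperones, folding and ER-associated degradation, 31 were tested, the exception being Derl3 with 0 or 1 count per library. A single one met the criterion, and 10 were positive and 21 negative with a median of -0.08 (0.013 with total-count scaling, against 0.09 over all genes). Calr, the lectin chaperone calreticulin, and Tmbim6, an ER membrane protein, had the highest TPM of the list, with log2 fold changes of -0.08 (SE 0.16) and -0.17 (SE 0.18). Sec61b, a subunit of the channel through which proteins enter the ER, was at 24.93, 19.65 and 22.67 CPM in MI4KO, compared with 13.82, 12.65 and 13.78 CPM in MI4OE. The groups did not overlap and the libraries within each lay close together. Sec61b had a log2 fold change of -0.74 (SE 0.15, unadjusted p = 0.00159, adjusted p = 0.433 by edgeR). It passed with DESeq2 (adjusted p = 0.0182), and its adjusted p over the 13 alternatives ran up to 0.912. The ER stress response element was in 8 of the 27 promoters matched for this list, among them that of Calr.

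Of 34 further ATF4 targets, 31 were tested, 15 with a positive and 16 with a negative log2 fold change, and the median was -0.01. With a library left out the median ranged from -0.16 (without MI4OE replicate 3) to 0.06 (without MI4KO replicate 1), and it was -0.12 without MI4KO replicate 3. The criterion was met by 2 genes higher and 4 genes lower in MI4OE, beside 4.36% and 2.28% of all genes tested, and 0 passed an adjusted p of 0.05. With a library left out the counts were 0 to 2 higher and 3 to 4 lower, and leaving out MI4KO replicate 2 or MI4OE replicate 1 gave the 0. The 3 genes not tested were Slc7a11 with 0 to 2 counts per library, Gdf15 with 0 to 8 and Fgf21 with 0 to 2. The last 2 encode hormones of the stress response, and at this depth both lay near the limit of detection. The 2 listed genes with the highest TPM were Gpt2 and Cebpb. The C/EBP-ATF response element was in 8 of the 27 promoters matched for the list, among them that of Vldlr. The interferon-stimulated response element was in 1 of these 27, again Vldlr, in 3 of the 10 matched for the eIF2 list (Eif2ak2, Eif2s1 and Ppp1r15a), in 1 of the 27 matched for the ER chaperone list (Txndc5) and in 0 of the 6 matched for the sensor list, beside 3.99% of all genes with a promoter.

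The strongest differences of the list were towards lower values in MI4OE. Ddit4 encodes REDD1, an inhibitor of mTORC1 that glucocorticoids also raise, and was at 180.0, 100.5 and 23.91 CPM in MI4KO, compared with 19.43, 5.31 and 11.79 CPM in MI4OE. Every MI4OE library was below every MI4KO library, and the MI4KO libraries themselves spanned a wide range. Ddit4 had a log2 fold change of -3.06 (SE 0.75, unadjusted p = 0.00401, adjusted p = 0.483 by edgeR's quasi-likelihood test), and the edgeR exact test gave an adjusted p of 0.0123. Over the 13 alternatives its adjusted p ran from 0.0123 to 0.912. Vldlr encodes the very low density lipoprotein receptor, and was at 366.8, 411.2 and 278.8 CPM in MI4KO, compared with 101.2, 136.1 and 90.32 CPM in MI4OE. The groups were well separated, and the log2 fold change was -1.69 (SE 0.24, 95% interval -2.25 to -1.13, unadjusted p = 0.000136, adjusted p = 0.216 by edgeR's quasi-likelihood test). DESeq2 and the edgeR exact test gave it adjusted p-values of 3.63e-08 and 3.06e-05, and over the 13 alternatives they ran up to 0.912.

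Gpt2, the mitochondrial alanine aminotransferase, was at 635.6, 392.8 and 305.9 CPM in MI4KO, compared with 135.0, 256.6 and 248.5 CPM in MI4OE, a log2 fold change of -1.06 (SE 0.35, unadjusted p = 0.0176, adjusted p = 0.546 by edgeR). Phgdh, the first enzyme of serine synthesis, was at 2.09, 3.17 and 16.46 CPM in MI4KO, compared with 1.28, 2.17 and 1.55 CPM in MI4OE, a log2 fold change of -2.11 (SE 0.76, unadjusted p = 0.0255, adjusted p = 0.574 by edgeR). The Phgdh groups overlapped and MI4KO replicate 3 alone was high, and without it the log2 fold change was -0.66. Phgdh also missed the criterion without MI4OE replicate 1 or 3 and with limma, and Gpt2 without MI4KO replicate 1 (-0.72). MI4KO replicate 3 also had the highest adipocyte markers, which summed to 387, 987 and 2156 TPM in MI4KO and to 753, 412 and 360 TPM in MI4OE. Of the 8 markers, 7 were lower in MI4OE at the criterion, beside 2.28% of all genes tested, and 0 were at 0 in any library. Fabp4, which endothelium also expresses, made up most of these sums, with 731 of the 753 TPM in MI4OE replicate 1. The other 7 markers summed to 66.8, 251 and 963 TPM in MI4KO and to 22.6, 68.8 and 28 TPM in MI4OE. The part of these markers in the Phgdh and Vldlr values was not tested. Cebpb, a partner of ATF4, had a log2 fold change of -0.79 (SE 0.41, adjusted p = 0.726 by edgeR), and met the criterion only when MI4KO replicate 3 or MI4OE replicate 1 was left out, of the 13 alternatives run.

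On the other side, Atf5, a transcription factor of the mitochondrial stress response, was at 55.92, 45.72 and 74.26 CPM in MI4KO, compared with 216.3, 59.46 and 115.1 CPM in MI4OE. As with Ddit3 and Trib3, MI4OE replicate 1 was the highest and MI4OE replicate 2 lay within the range of MI4KO. Atf5 had a log2 fold change of 1.15 (SE 0.44, unadjusted p = 0.0322, adjusted p = 0.604 by edgeR), and 0.57 without MI4OE replicate 1. Atf5 missed the criterion without that library, MI4KO replicate 1 or MI4KO replicate 2. Mthfd2, a mitochondrial enzyme of folate metabolism, was at 3.89, 2.34 and 3.33 CPM in MI4KO, compared with 5.51, 4.23 and 5.12 CPM in MI4OE. Its groups did not overlap, and its log2 fold change was 0.64 (SE 0.26, unadjusted p = 0.0393, adjusted p = 0.626 by edgeR). It met the criterion in 8 of 13 alternatives, and missed it with limma and without MI4KO replicate 2 (0.44), MI4KO replicate 3, MI4OE replicate 1 or MI4OE replicate 3.

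**Figure D4:**
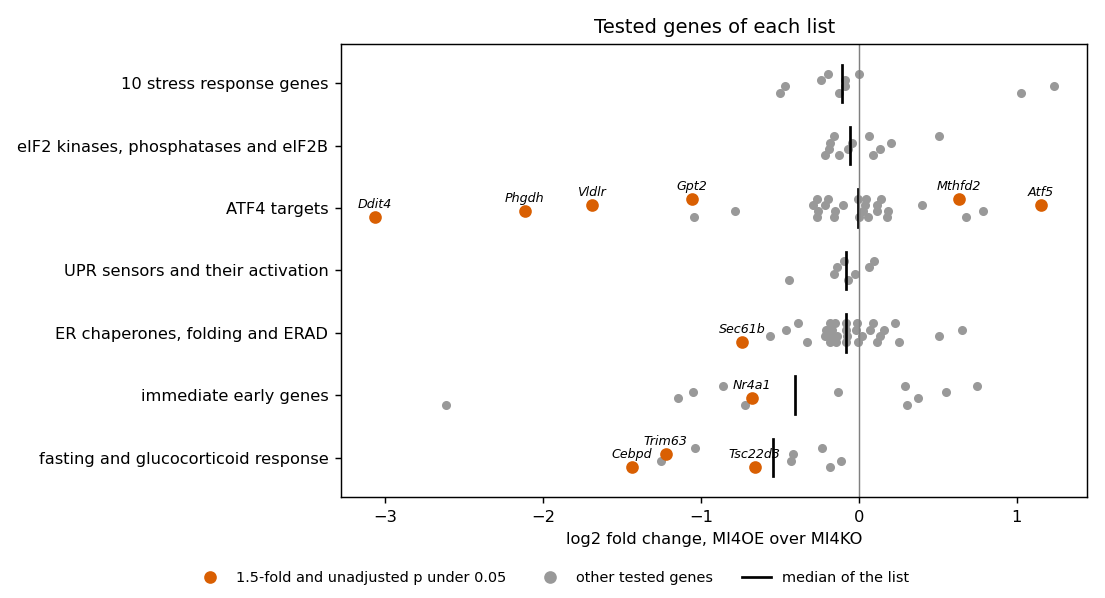
The log2 fold change (MI4OE over MI4KO, horizontal axis) of every tested gene of each list, 1 dot per gene and a black line at the median of the list; orange dots with names met 1.5-fold with an unadjusted p under 0.05. The 10 genes at the top include no orange dot, and the ATF4 targets have orange dots on both sides of 0, from -3.06 for Ddit4 to 1.15 for Atf5.

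Lists were also read for responses that share genes with the stress response. Of 12 immediate early genes, 1 met the criterion, 5 were positive and 7 negative, and the median was -0.40. The median was 0.03 with MI4KO replicate 1 dropped and -0.19 with MI4OE replicate 3 dropped. The number at the criterion depended on the setting. It was 5 with MI4OE replicate 1 dropped, 3 with MI4KO replicate 2 or 3 dropped, and 0 with MI4KO replicate 1 dropped. DESeq2, the exact test and the fit with no filter each gave 3, and total counts gave 0. The remaining alternatives gave 1. In the main fit the gene at the criterion was Nr4a1, a nuclear receptor induced by muscle activity, with a log2 fold change of -0.67 (SE 0.25, unadjusted p = 0.0266, adjusted p = 0.577 by edgeR). Jun, the other of the 2 with the highest TPM, was at 0.37 (SE 0.22). All 10 fasting and glucocorticoid response genes had a negative log2 fold change, beside 50% of all genes tested, with a median of -0.54. Of them 3 met the criterion, all lower in MI4OE, beside 2.28% of all genes tested. This direction rested in part on MI4KO replicate 1: without it 3 of the 10 (Fbxo32, Foxo1 and Pdk4) were positive, the median was -0.19 and 0 met the criterion. With another library left out, with total counts or with limma, 0 or 1 of the 10 was positive. At the criterion were 6 without MI4KO replicate 3 (median -0.77), 4 without MI4KO replicate 2 and 1 without MI4OE replicate 1. Without MI4OE replicate 2 or 3 there were 2. In the main fit the 3 genes at the criterion were Trim63, the ubiquitin ligase MuRF1, at -1.22 (SE 0.50, adjusted p = 0.626 by edgeR), Tsc22d3, a glucocorticoid target, at -0.66 (SE 0.22, adjusted p = 0.546), and Cebpd, a C/EBP transcription factor, at -1.44 (SE 0.45, adjusted p = 0.546). Without MI4KO replicate 1 these 3 genes and Nr4a1 missed the criterion, at -0.36 for Trim63, -0.99 for Cebpd and -0.46 for Nr4a1. Trim63 also missed it without any of the MI4OE libraries and with limma, Tsc22d3 without MI4OE replicate 1 (-0.54) and with total counts, and Nr4a1 without MI4OE replicate 3 and with total counts. MI4KO replicate 1 was the highest library for Ddit4, Gpt2, Cebpb, Trim63, Tsc22d3 and Cebpd. It was also the highest for Atf4, Xbp1 and Hspa5, 3 of the 10 genes, against 18.2% of all genes tested. The part of the fasting and glucocorticoid response in the values of Ddit4 and Gpt2 was not tested.

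The genes most like Atf4 and Hspa5 over the 6 libraries were named by Pearson's r of log2 CPM among 11296 genes with a mean CPM of at least 1. For Atf4 these were Cst6 (r = 0.998), Zfand2b (0.997), Acot8 (0.997), Ndufaf6 (0.996) and 9230114K14Rik (0.993), and 316 genes had an r over 0.9. For Hspa5 they were 1110008F13Rik (0.978), St8sia5 (0.978), Rab22a (0.976), Nfil3 (0.969) and Ggt7 (0.968), and 63 genes had an r over 0.9. None of these 10 genes is on the lists above. With 6 libraries that differ in depth and length bias, these values describe the libraries and carry no test.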

How the data were processed

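Per the labels and the methods of the study, the authors prepared stranded mRNA libraries, aligned reads to UCSC transcripts and quantified them with RSEM; the submitters' processing notes name bcl2fastq 2.17, Bowtie2 2.1.0 and RSEM 1.2.15. The genome build was not given in the sources used here. The expected counts deposited for each gene and transcript come from RSEM without normalization, and reads matching several transcripts are divided among them. The TPM values deposited by the authors are RSEM's per-length abundances. Whether the strand was used in counting is not given. The authors' 2 comparison tables, with fold changes, p-values, false discovery rates and 12 columns of scaled library values, were not used.

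Libraries were grouped by the genotype label. The methods of the study count 3 gastrocnemius muscles per genotype and the titles carry 6 different numbers, but do not say outright that each muscle came from another animal; if some did not, p-values measure only the spread between these samples. Rounded expected counts were analysed in edgeR 4.0.16 (R 4.3.3), with TMM factors and filterByExpr (minimum count 10, minimum total 15), and tested by quasi-likelihood, with Benjamini-Hochberg adjustment across 12660 genes. The code was tested on simulated data. Alternatives used DESeq2 1.42.0, limma 3.58.1 on log2(TPM + 1), other scalings and filters, and each library left out in turn. The Xbp1 spliced share was compared with an exact permutation test, and the other transcript shares were not tested. The correlations and standard errors are from the same fit or its log2 CPM with a prior count of 2. The members and lists were chosen with earlier results of these data known, and no pattern in them is independent support. Named were the 10 genes, Irf4 and Gt(ROSA)26Sor, of each list the 2 genes of highest mean TPM and up to 3 per direction with the largest change among those at 1.5-fold, an unadjusted p under 0.05 and a mean CPM of at least 1, and the 5 genes most like Atf4 and Hspa5. Promoters were read from RefSeq and the Xbp1 transcript from GENCODE. Lists of fibroblast, endothelial, macrophage, B cell and Schwann cell markers were read as further checks.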

Additional observations from a re-analysis of the deposited data

How the results depend on the processing

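Under 13 alternatives for each of the 10 genes, none passed an adjusted p of 0.05. Genes at an adjusted p under 0.05 numbered 3, and 111 with DESeq2, 108 with the edgeR exact test and 1 to 4 with a library left out (1 without MI4KO replicate 1). At 1.5-fold with an unadjusted p below 0.05 there were 841 genes, and 468 with limma on log2(TPM + 1) and 590 to 1314 with a library left out (1314 without MI4OE replicate 2). Of the 10 genes, 0 met this criterion, and 1 with DESeq2 (Ddit3) and 0 to 2 with a library left out (Atf3 without MI4OE replicate 1, Ddit3 and Trib3 without MI4OE replicate 2). The ER chaperone list held 1 such gene, and 1 to 3 with a library left out, the others being Edem1 without MI4KO replicate 1 and Ppib and Wfs1 without MI4OE replicate 2. The log2 fold change turned sign for Atf4 (0.027 with total counts, 0.093 without MI4KO replicate 1), Atf3 (0.16, 0.22 and 0.12 without MI4KO replicate 3, MI4OE replicate 2 and MI4OE replicate 3), Asns (0.047 and 0.034 without MI4KO replicate 3 and MI4OE replicate 2), Chac1 (0.19 without MI4KO replicate 2), Hspa5 (0.0054 with total counts) and Hsp90b1 (-0.022 with no filter, -0.0095 with RLE, -0.0096 with DESeq2, and -0.07, -0.0035 and -0.12 without MI4KO replicate 2, MI4KO replicate 3 and MI4OE replicate 1). With a library left out, the range was -0.23 to 0.093 for Atf4, -1.83 to 0.22 for Atf3, -0.40 to 0.047 for Asns, -0.85 to 0.19 for Chac1, -0.72 to -0.17 for Sesn2 and -0.12 to 0.060 for Hsp90b1. The difference in the Xbp1 spliced share ran from -3.27 to 5.18 percentage points. Total-count scaling moved the median of all genes to 0.09, and the Atf4 and Hspa5 values under it were below that median. The cause of these changes was not tested. The counts for the eIF2, ATF4 target and ER sensor lists stayed within 1.5 times under every alternative run, and 4 results of Ddit4, Vldlr and Sec61b passed an adjusted p of 0.05 only with DESeq2 or the exact test. No paired analysis was possible because no label links a library of one group to a library of the other: numbers were given in accession order.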

Other observations

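Markers of other cells in the muscle were read as values beside the stress genes. All 8 fibroblast markers had a positive log2 fold change (MI4OE over MI4KO), 7 at 1.5-fold with an unadjusted p under 0.05. Of all genes tested, 6.64% met this criterion, 4.36% higher in MI4OE, and 50% had a positive log2 fold change. The fibroblast markers summed to 136 to 180 TPM in MI4KO and 232 to 310 TPM in MI4OE. All 8 endothelial markers also had a positive log2 fold change, 4 at the criterion, with sums of 39.5 to 82.8 and 92.4 to 141.9 TPM. The 7 macrophage markers met the criterion in 0 cases and summed to 51.9 to 96.1 and 38.0 to 76.6 TPM. Schwann cell markers, 0 of 6 at the criterion, summed to 23.4, 123 and 24.3 TPM in MI4KO and 77.2, 213 and 71.0 TPM in MI4OE, highest in replicate 2 of each group, which also had the highest Chac1. B cell and plasma cell markers summed to 1.52 to 4.79 TPM in every library.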
